A study of Drosophila melanogaster with 2 samples.

Results

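The small nuclear RNA (snRNA) and small nucleolar RNA (snoRNA) genes of Drosophila melanogaster were described for peaks of tagged Mes4 in whole embryos. The members were all genes that Ensembl release 115 gives the biotype snRNA or snoRNA on the chromosome arms analysed, 301 of 18164 genes. They comprised 32 snRNA genes and 269 snoRNA genes, and 16 of the latter carry the name scaRNA, for small Cajal body RNA. Of the members, 254 lay inside an intron of a host gene on the same strand and are called nested, and the other 47 are called independent. They were taken by biotype and no measured value was used to choose them, although earlier results of these data were known.

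The chromatin came from embryos of 0 to 16 h, males and females together, of a transgenic line with GFP at the C terminus of Mes4, and it was precipitated, by the description of the samples, with an antibody to GFP, although their antibody field names Mes4. Both samples are biological replicates of that single group, numbered 3 and 4, and share 1 control, and no sample without the tag or with another antibody was analysed here. Whole embryos hold many cell types, so binding in fewer cells and weaker binding in all cells cannot be told apart. Each replicate has a relaxed list of 30000 peaks, the pooled reads have another of 30000, and the optimal list, chosen by the irreproducible discovery rate (IDR), holds 3207, which are the strongest of the pooled list. A gene was counted as having a peak where a summit lay within 500 bp of its transcription start site (TSS), and peaks were ranked by the authors' signal value within each list, rank 1 being the strongest. The files hold no read counts, so sequencing depth is unknown, and the 95% Wilson intervals given here cover only the counting of genes. Genes that share a peak are not independent of each other.

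snRNAs are short RNAs that form the core of the spliceosome, and most are made by RNA polymerase II, while U6, U6atac and 7SK RNA are made by RNA polymerase III. Both kinds of snRNA gene in flies carry a proximal sequence element (PSE) upstream of the start, which is bound by the SNAPc complex, and the polymerase III genes add a TATA box. snoRNAs guide chemical changes of ribosomal RNA, with box C/D snoRNAs directing methylation of ribose and box H/ACA snoRNAs directing conversion of uridine to pseudouridine, and scaRNAs do the same to snRNAs. Most fly snoRNAs have no promoter of their own: they are cut out of introns of host genes, many of which encode ribosomal proteins, while the Uhg genes are hosts that encode no protein.

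The start regions of 12 snRNA genes are shown because near-identical U1, U2 and U6 genes were found with and without a peak, and the pair named 7SK is added. Each runs from 75 bases before to 15 bases from the TSS on, 5′ to 3′ on the strand of the gene, in dm6 coordinates with the RefSeq Release 6 sequence. Capitals mark the PSE core ATTCCCA or its variant ATTCTCA, which was chosen after the sequences were seen. The first 6 genes had an optimal IDR peak and the last 6 had none.
snRNA:U1:21D (chr2L:901640-901729, minus strand): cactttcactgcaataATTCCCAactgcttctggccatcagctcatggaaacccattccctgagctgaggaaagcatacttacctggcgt
snRNA:U1:95Ca (chr3R:23859616-23859705, minus strand): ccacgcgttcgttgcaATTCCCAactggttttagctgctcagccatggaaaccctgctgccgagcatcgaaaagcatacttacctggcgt
snRNA:U2:34ABb (chr2L:13215764-13215853, plus strand): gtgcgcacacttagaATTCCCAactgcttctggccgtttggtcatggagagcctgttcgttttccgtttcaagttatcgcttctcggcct
snRNA:U6:96Ab (chr3R:24556617-24556706, plus strand): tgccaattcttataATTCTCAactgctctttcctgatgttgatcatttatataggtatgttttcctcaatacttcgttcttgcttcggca
snRNA:U6:96Ac (chr3R:24557140-24557229, plus strand): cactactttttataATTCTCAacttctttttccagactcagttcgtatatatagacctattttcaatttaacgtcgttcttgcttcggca
snRNA:7SKa (chr3R:7474982-7475071, minus strand): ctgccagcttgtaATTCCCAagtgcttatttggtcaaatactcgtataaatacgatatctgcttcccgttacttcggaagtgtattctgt
snRNA:U1:82Eb (chr3R:4948082-4948171, minus strand): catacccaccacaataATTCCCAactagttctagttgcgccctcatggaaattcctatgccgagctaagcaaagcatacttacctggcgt
snRNA:U1:95Cb (chr3R:23827795-23827884, plus strand): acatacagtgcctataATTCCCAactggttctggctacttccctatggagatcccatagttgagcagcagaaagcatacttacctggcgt
snRNA:U2:34ABa (chr2L:13212102-13212191, minus strand): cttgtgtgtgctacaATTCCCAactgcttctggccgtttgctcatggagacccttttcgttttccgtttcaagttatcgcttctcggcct
snRNA:U2:34ABc (chr2L:13244547-13244636, minus strand): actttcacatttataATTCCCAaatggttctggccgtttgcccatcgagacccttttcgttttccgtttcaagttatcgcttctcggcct
snRNA:U6:96Aa (chr3R:24556013-24556102, plus strand): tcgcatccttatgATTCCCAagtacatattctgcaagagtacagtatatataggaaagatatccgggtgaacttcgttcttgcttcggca
snRNA:7SKb (chr3R:23432794-23432883, plus strand): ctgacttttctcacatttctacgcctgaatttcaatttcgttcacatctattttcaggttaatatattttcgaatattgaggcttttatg

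Apart from 7SKb, which has no marked element, these stretches show it at nearly the same place in the genes with and without a peak, followed by the start of the RNA. In the U6 genes and 7SKa a TATA-like run of T and A follows it, as is known for polymerase III genes.

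Of the 301 members, 24 had an optimal IDR peak at the TSS, a share of 7.97% (5.42 to 11.6), where 12.6% of all genes did. Genes with several TSSs have more chances to be counted, and among other genes with a single annotated TSS the share was 9.17%, inside the interval of the members. snRNA genes had a peak at 6 of 32 (18.8%, 8.89 to 35.3) and snoRNA genes at 18 of 269 (6.69%, 4.27 to 10.3). The split by position was wider: 9 of 47 independent members had a peak (19.1%, 10.4 to 32.5), and 15 of 254 nested members (5.91%, 3.61 to 9.51). All 6 snRNA genes with a peak were independent, 6 of 21 (28.6%, 13.8 to 50), and none of the 11 nested snRNA genes had one, which allows a share of up to 25.9% by the Wilson interval. Among 290 tRNA genes, which RNA polymerase III transcribes, 11 had an optimal IDR summit (3.79%).

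The relaxed lists placed a summit at more members. In the pooled list 104 members had a summit (34.6%, 29.4 to 40.1) against 48.6% of all genes. In replicate 3 the count was 109 (36.2%) against 49.2%, and in replicate 4 it was 106 (35.2%) against 45.5%. Both replicates held a summit at 63 members, replicate 3 alone at 46, replicate 4 alone at 43, and neither at 149. Of all genes, 37.5% had a summit in both replicates, more than the 63 of 301 among the members. A weak summit in 1 replicate is given below as a value and read no further.

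**Figure D1:**
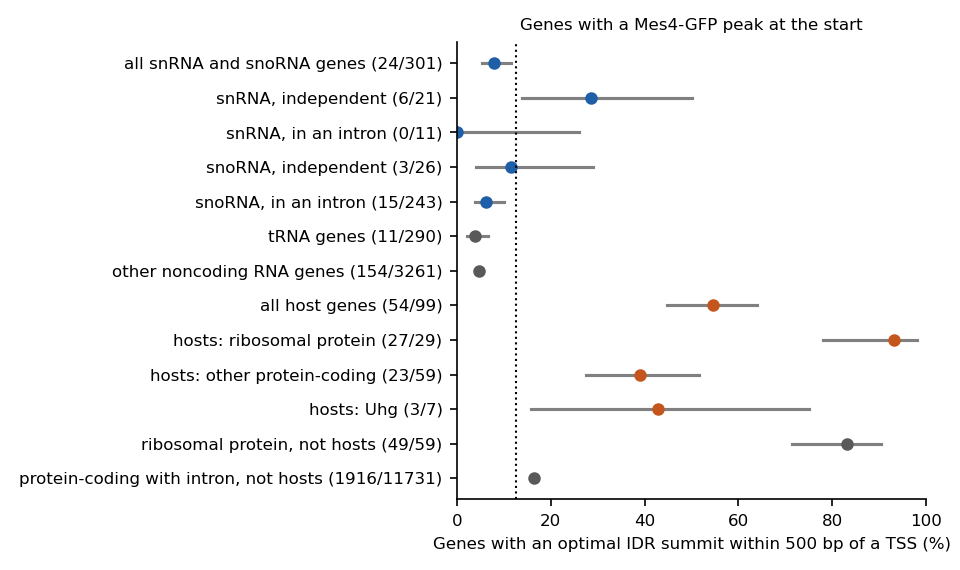
Share of genes with an optimal IDR peak at a TSS (x axis, percent), with the number of genes in brackets. Points are shares, bars are 95% Wilson intervals (within the point where the group is large), and the dotted line is the 12.6% of all genes. Nested snoRNA genes sit at 6.17%, all host genes at 54.5%, and the ribosomal protein genes among the hosts at 93.1%.

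The 6 snRNA genes with an optimal peak belonged to 4 classes. 7SKa, whose RNA holds the elongation factor P-TEFb in an inactive complex, had the strongest, at rank 1280 with a signal of 146. Its summit lay 173 bp downstream of the TSS, inside the gene of 444 bp, and the same peak stood at rank 1720 in replicate 3 and 869 in replicate 4. The nearest TSS of another gene, CG1142, was 1042 bp from that summit. CG1142 had a stronger optimal peak of its own nearby, at rank 105 with a signal of 480. It ran from 7473803 to 7474095 on chr3R, and the peak of 7SKa from 7474615 to 7475030.

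U6 RNA pairs with the 5′ splice site and forms part of the catalytic centre of the spliceosome. Its copies U6:96Ab and U6:96Ac shared a peak at rank 1290 with a signal of 145. The summit lay 77 bp upstream of U6:96Ac and 446 bp downstream of U6:96Ab. It stood at rank 1524 in replicate 3 and 1139 in replicate 4. There it lay 110 and 114 bp upstream of U6:96Ac, so both replicates put it nearer to that copy. The third copy, U6:96Aa, nested in the gene Esyt2, lay 1050 bp from the same summit and had a summit of its own only in replicate 4, at rank 20517.

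U2 RNA pairs with the branch point of introns. U2:34ABb had a peak at rank 1363 with a signal of 140, with its summit 187 bp downstream of the TSS and still within the gene of 192 bp. Its ranks were 1815 in replicate 3 and 1059 in replicate 4, where the summit lay 80 bp downstream. The nearest TSS of another gene, kek4, was 676 bp away. Its neighbour U2:34ABa, 3910 bp from that summit, had no summit in any list.

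U1 RNA recognises the 5′ splice site. U1:95Ca had a peak at rank 1396 with a signal of 138, and its summit lay 23 bp downstream of the TSS, with ranks of 1581 and 1378 and distances of 10 and 16 bp in replicates 3 and 4. No other gene had a TSS within 30445 bp of it. U1:21D had the weakest of these peaks, at rank 2549 with a signal of 98.3, 62 bp downstream of the TSS, and ranks of 2909 and 2292 in the replicates. That peak also lay 490 bp downstream of the start of scaRNA:MeU1:95C-A24, a scaRNA gene on the same strand.

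Every one of these 5 peaks ranked among the strongest 3207 of both replicates taken alone. None had a TSS of a gene other than the members within 500 bp of its summit, so here the snRNA gene was the nearest annotated start. In 4 of the 6 genes the pooled summit lay inside the gene. Chromatin was sheared to 200 to 800 bp, so summit positions do not separate the PSE from the body of so short a gene.

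A further 10 snRNA genes had a pooled relaxed summit but no optimal peak. The strongest was U4:39B, a copy of the RNA that keeps U6 inactive until the spliceosome is assembled, at pooled rank 5367 with a signal of 62.5, 23 bp downstream of its TSS. It stood at rank 7585 in replicate 3 and 3610 in replicate 4. U5:63BC followed at pooled rank 6646, but its replicates differed widely, with ranks of 19350 and 3087. The other copies of U4 were U4:38AB at 10046 and U4:25F at 16628, so all 3 U4 genes were in the pooled list and none in the optimal list. U4:25F had no summit in replicate 3, and the start of lncRNA:CR44794 lay 136 bp from its TSS.

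The RNAs of the minor spliceosome, which removes a rare class of introns, had weak summits at most. U11 stood at pooled rank 10222, U12 at 20032 and U4atac at 24937, and U6atac had a summit in replicate 3 alone, at rank 18875. Of the other relaxed summits, U1:95Cc stood at 22739, and U2:34ABc and U5:34A shared a summit at 24650 between their starts. A summit in replicate 3 alone was seen at U1:82Eb, rank 11257, and at 7SKb, rank 21087.

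The other 12 snRNA genes had a summit in none of the lists. They were U1:95Cb, 4 of the 6 U2 genes, 5 of the 7 U5 genes, U7, which directs the processing of histone mRNA, and the LU gene. U5 was the largest class, and none of its 7 copies had an optimal peak, which allows a share of up to 35.4% by the Wilson interval. Within U1, U2 and U6, copies with an optimal peak thus stood beside copies with none.

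**Figure D2:**
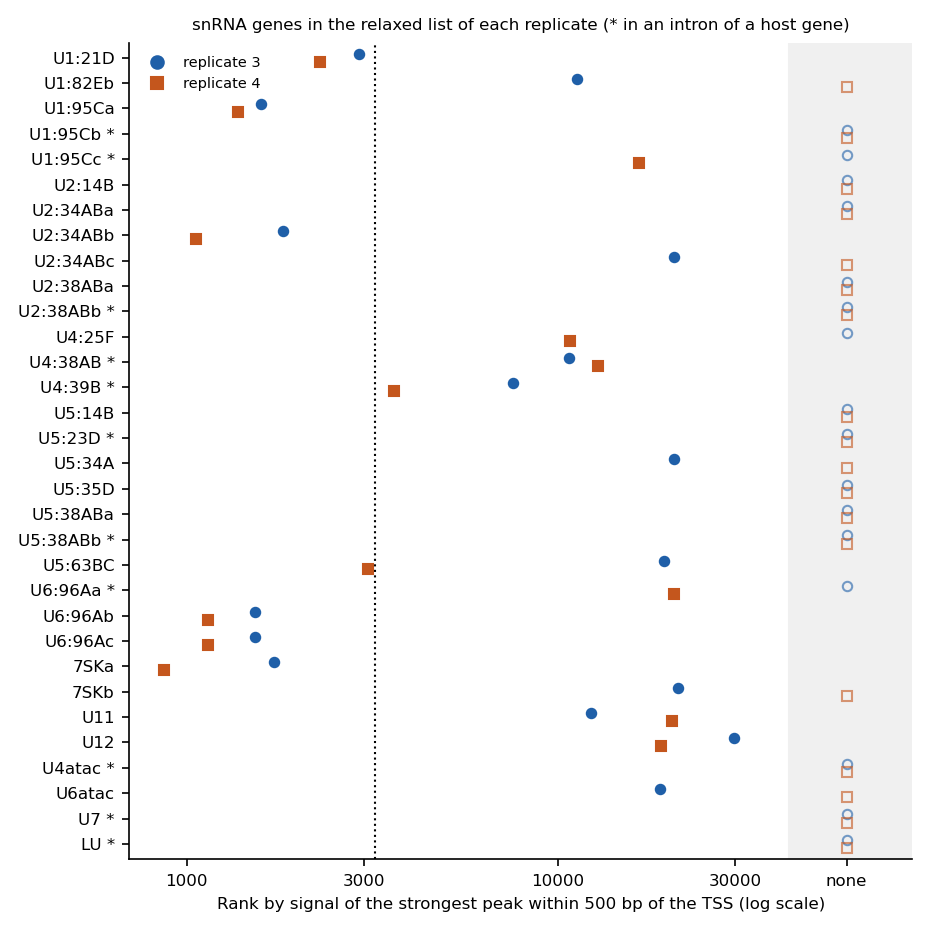
Rank by signal of the strongest peak within 500 bp of each snRNA gene's TSS (x axis, log scale) in the relaxed list of replicate 3 (circles) and replicate 4 (squares). Open symbols in the grey band mark no summit, the dotted line is rank 3207, and asterisks mark nested genes. The 6 genes with an optimal peak sit left of the line in both replicates, and U5:63BC is left of it in replicate 4 only.

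The PSE did not separate the genes with a peak from the others. The core ATTCCCA, on either strand within 100 bases upstream of the TSS, was found in 26 of 32 snRNA genes (81.2%) and in 1.76% of all genes. With the variant ATTCTCA the count was 31 of 32 (96.9%), against 3.08% of all genes, all on the strand of the gene with the element beginning 56 to 65 bases before the TSS. All 6 genes with an optimal peak had a form of it, and so did 25 of the 26 without. The exception was 7SKb. Among 515 genes other than members that held either form upstream, 82 had an optimal peak (15.9%). That is near the 12.6% of all genes and the 15.1% of protein-coding genes.

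Other promoter motifs were sparse at the snRNA genes. The TATA box TATAAA was searched on either strand from 150 bases before to 50 after the TSS. It was found in 6 of 32 snRNA genes (18.8%), against 31.5% of all genes. Of the 6 genes with a peak 3 had it, and of the 26 without a peak 3 did (11.5%). The element TATCGATA, to which the factor DREF binds, was found in none of the 301 members and in 6.57% of all genes. Its shorter core ATCGATA, which overlaps it, was found in 1 snRNA gene.

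Copies of U1, U2 and U6 are near-identical, so reads from their bodies can be hard to place, and how the authors treated reads with several matches is not given in the sources used here. The bodies of the 5 U1 genes were 98.2 to 100% identical to each other, those of the 6 U2 genes 98.4 to 100%, and those of the 3 U6 genes 100%. The copies of U4, at 73.6 to 94.4%, and of U5, at 77.8 to 96.1%, were less alike. Upstream of the PSE, from 400 to 81 bases before the TSS, the U1 copies were 42.8 to 50.3% identical, no more than the 42.8 to 52.5% between U1 and U5 genes. The U6 copies reached 45.6% there and the U4 copies 48.4%, while the U5 copies reached 56.6% and the U2 copies 78.8%, the latter between U2:38ABa and U2:14B. 7SKb was 46.8% identical to 7SKa over the body, in the range of 45.1 to 49.4% between U1 and U5 genes.

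Within 500 bp of the TSS, a median of 92.0% of 31-base words at snRNA genes occurred once in the genome, against 100% at all genes and at snoRNA genes. The 6 genes with a peak ranged from 81.2 to 100%. The other 26 had a median of 93.3%, and 3 of them, U2:34ABc, U2:38ABa and U2:38ABb, lay under 50%. Absence of a peak at those 3 is uncertain for that reason, and the part of repeated sequence in the other copies was not tested.

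Among the 26 independent snoRNA genes, 3 had an optimal peak (11.5%, 4.00 to 29), and all 3 lay in ambiguous places. snoRNA:185 had a peak at rank 1023 with a signal of 165, 80 bp upstream of its TSS, with ranks of 906 and 1322 in the replicates, but the start of tRNA:Glu-TTC-1-5 lay 299 bp from the summit. scaRNA:MeU1:95C-A24 shared the peak of U1:21D, whose summit lay 510 and 551 bp from it in replicates 3 and 4. The remaining gene, snoRNA:Or-ACA6, lay in an intron of a gene on the other strand, 446 bp from a summit at rank 1046 with a signal of 163.

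That summit had no gene start of another kind within 3398 bp, and a group of snoRNA genes lay around it. Beside Or-ACA6 they were Or-CD13 at 551 bp, scaRNA:MeU1b-A234 at 847 bp and Or-ACA7 at 1077 bp. The peak stood at rank 1048 in replicate 3 and 1032 in replicate 4, where its summit lay just outside the limit of 500 bp from Or-ACA6.

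U3, a box C/D snoRNA needed for cutting the precursor of ribosomal RNA, is made from its own promoters, and its 3 genes had no optimal peak. U3:9B had summits at ranks 6441 and 9157 in replicates 3 and 4. U3:54Ab had a summit in the pooled list alone, at rank 16924, and U3:54Aa had none. All 3 carry the PSE core or its variant 60 bases before the TSS. Unique words made up 52.3% of the start region of U3:54Aa and 52.0% of that of U3:54Ab, so absence of a peak there is as uncertain as at the repeated U2 genes. Outside U3, snoRNA:Me18S-A1806 carries the core 67 bases before its TSS and had a summit in none of the lists. The nested snoRNA:Me18S-C1968, with the core 61 bases before its TSS, stood at pooled rank 4855 and at 4502 and 5227 in replicates 3 and 4. Of the independent snoRNA genes without an optimal peak, Psi18S-176 came nearest to that list, at pooled rank 3513, with ranks of 3859 and 2856 in replicates 3 and 4. CG43051-a followed at pooled rank 3734, where the replicates differed more, at 5858 and 1493.

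Nested members had a peak almost only where the host promoter was close. Of the 15 nested members with an optimal summit, 14 shared a peak that was also counted at the host's own start, and in those 14 the summit lay upstream of the member. Among them, snoRNA:Me18S-G1358c in RpL15, at rank 2557, had its summit 6 bp from its own TSS and 121 bp from the host TSS. That summit was nearest to the snoRNA, so the peak cannot be given to the host alone. The member with the strongest was snoRNA:U49:66Da in RpL14, at rank 25 with a signal of 812, where the summit lay 17 bp from the host TSS and 484 bp from the snoRNA. It stood at rank 23 in replicate 3 and 31 in replicate 4.

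The next were Psi28S-2949 and Or-aca5, both in Uhg4 at rank 176, Or-CD11a in RpL28 at 194 and Psi28S-1232 in RpL17 at 227. Me28S-A774b in RpS12 stood at 452, Psi18S-1275 in RpS29 at 492, Me18S-C1096 in RpL3 at 592 and Psi18S-920 in RpL10Ab at 991. Names that begin with Me, for methylation, or Psi, for pseudouridine, give the ribosomal RNA and the base that the snoRNA is predicted to guide, and those with Or, for orphan, give no target. In each of these 9 the summit lay at most 60 bp from the host TSS.

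The nested member whose peak was not counted at its host was snoRNA:Or-CD4, the last member in Uhg5. Its peak, at rank 975 with a signal of 170, had its summit 430 bp downstream of the snoRNA and 3082 bp from the nearest TSS of another gene, and ranked 887 and 1263 in the replicates. Uhg5 had a weaker peak at its own start, at rank 1871 with a signal of 117.

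Distance to the host start went with the count. Of 33 nested members within 500 bp of a host TSS, 13 had an optimal peak. Of 50 members at 501 to 1000 bp 1 did, of 74 members above 1000 and up to 2000 bp 0 did, and of 97 members farther away 1 did. No nested member had an optimal peak where its host lacked one. The limit of 500 bp therefore fixes much of the count: the members just inside it were U49:66Da at 484 bp, MeU1:95C-A24 at 490 bp and Me18S-C1096 at 493 bp, and those just outside were Psi28S-2648 at 524 bp, Me28S-C2645b at 526 bp and Or-CD13 at 551 bp.

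**Figure D3:**
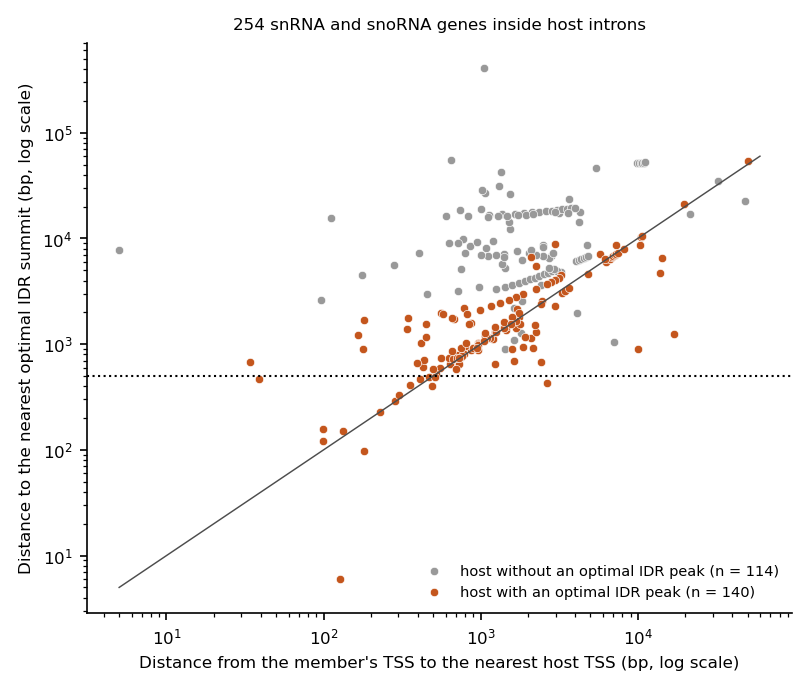
For each of the 254 nested members, the distance from its TSS to the nearest TSS of the host (x axis, bp) and to the nearest optimal IDR summit (y axis, bp), both on log scales, with values under 5 bp drawn at 5. Orange points have a host with an optimal peak (n = 140) and grey points do not (n = 114), the line marks equal distances and the dotted line 500 bp. Many orange points follow the line, where the nearest summit is as far away as the host start.

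The hosts themselves had peaks far more often than their snoRNAs. An optimal IDR summit lay at a TSS of the host for 140 of 254 nested members (55.1%). Any annotated TSS of the host counted, not only the nearest to the member, and genes with several TSSs have more chances to be counted. By gene, 54 of 99 hosts had one (54.5%, 44.8 to 64). Among protein-coding hosts the count was 50 of 88 (56.8%, 46.4 to 66.7), where 15.1% of all protein-coding genes and 16.3% of those with an intron but no member had a peak. At 10 of the 54 hosts the summit was nearest to the TSS of another gene, so the peak cannot be given to the host alone.

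Ribosomal protein genes were 27 of the 54 hosts with a peak. Of 29 such hosts 27 had one (93.1%, 78.0 to 98.1), with ranks from 22 to 2557 and a median of 346. The summit lay between 180 bp upstream and 121 bp downstream of the host TSS, with a median of 14 bp upstream. Ribosomal protein genes without a nested member had a peak at 49 of 59 (83.1%, 71.5 to 90.5), an interval that overlaps that of the hosts.

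Other protein-coding hosts had a peak at 23 of 59 (39.0%, 27.6 to 51.7), above the 16.3% of protein-coding genes with an intron and no member. Of the nested members, 75 lay in ribosomal protein hosts, and 72 of them had a host with a peak (96%). For 9 of the 75 (12%) an optimal summit lay within 500 bp of the member's own TSS. In each case it was the peak also counted at the host.

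The hosts with the strongest peaks were RpL23A at rank 22 with a signal of 823 and RpL14 at rank 25. RpL13A stood at 77, RpL30 at 83, RpL11 at 88, RpL22 at 101, RpS16 at 179, RpS4 at 180, RpL28 at 194, RpS20 at 207 and RpL17 at 227. Hosts outside the ribosomal protein genes were Stt3A, a subunit of the oligosaccharyltransferase, at 75, CG1142 at 105, Uhg4 at 176 and CG12316 at 188. Of these 15, the summit at Stt3A was nearest to the TSS of bves and that at RpS20 to the TSS of CG17271.

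**Figure D4:**
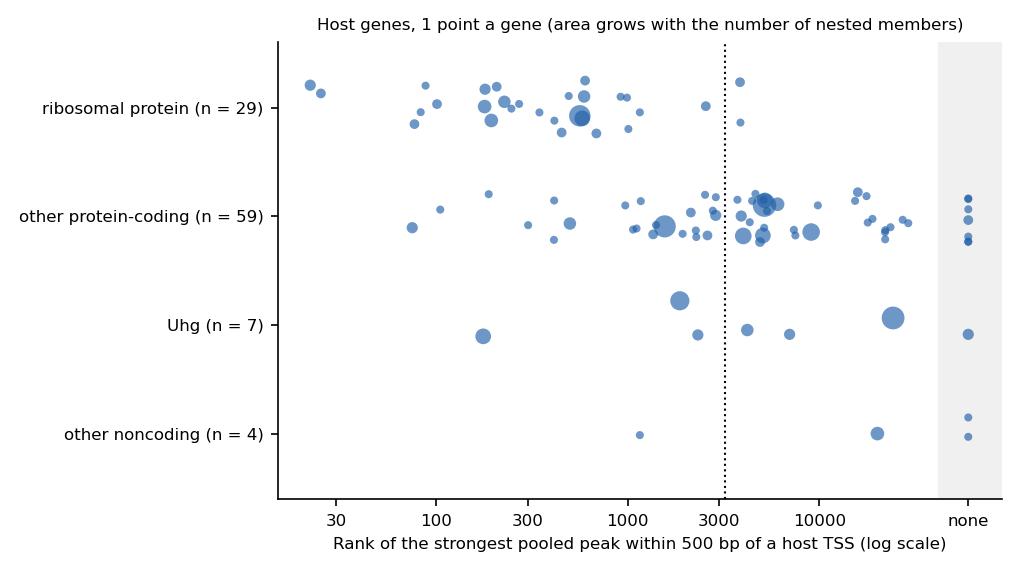
Rank by signal of the strongest pooled peak within 500 bp of a TSS (x axis, log scale) for each of the 99 host genes, by kind of host. Point area grows with the number of nested members, the grey band holds genes with no summit, vertical scatter within a row carries no value, and the dotted line is rank 3207, the end of the optimal list. Of 29 ribosomal protein hosts 27 lie left of the line, and of 7 Uhg genes 3 do.

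The starts of 5 hosts are shown because ribosomal protein genes are known to begin their transcripts with a run of pyrimidines, while the starts at the other hosts differ. Each runs from 30 bases before to 30 bases from the most upstream TSS on, in dm6 with the RefSeq Release 6 sequence, and capitals mark runs of at least 6 C or T within 10 bases of the TSS, which Uhg3 and Arpc2 lack.
RpL23A (chr3L:1668625-1668684, minus strand): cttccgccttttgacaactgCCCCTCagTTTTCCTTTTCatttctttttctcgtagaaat
RpL14 (chr3L:8600976-8601035, plus strand): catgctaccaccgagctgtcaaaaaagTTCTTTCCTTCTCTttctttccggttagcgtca
RpL28 (chr3L:3222931-3222990, minus strand): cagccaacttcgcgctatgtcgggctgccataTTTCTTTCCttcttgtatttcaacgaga
Uhg3 (chr2L:20647503-20647562, plus strand): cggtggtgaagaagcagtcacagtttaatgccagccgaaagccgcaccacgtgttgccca
Arpc2 (chr2L:20417027-20417086, plus strand): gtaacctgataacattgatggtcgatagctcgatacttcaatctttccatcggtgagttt

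A run of at least 6 pyrimidines within 10 bases of a TSS was found at 25 of 29 ribosomal protein hosts (86.2%) and at 19 of 70 other hosts (27.1%), where 16.9% of protein-coding genes with an intron had one. Among hosts with an optimal peak it was found at 33 of 54 (61.1%), and among those without at 11 of 45 (24.4%). This motif was chosen after the data were seen, any annotated TSS counted, and the ribosomal protein genes weigh on both shares. The DRE TATCGATA, searched as above, was found at 12 of 54 hosts with a peak (22.2%) and 7 of 45 without (15.6%), against 8.22% of protein-coding genes. TATAAA was found at 13 of 54 (24.1%) and 12 of 45 (26.7%).

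Hosts with many snoRNAs and hosts with few had peaks at shares whose intervals overlap. The 15 hosts with 5 or more nested members held 133 of the 254, and 7 of them had an optimal peak (46.7%, 24.8 to 69.9), against 47 of 84 hosts with fewer (56.0%, 45.3 to 66.1). The 7 were dom, a chromatin remodeller, with 15 members and rank 1560, RpS5a with 14 and rank 562, Uhg5 with 11 and rank 1871, Uhg4 with 7 and rank 176, RpS7 with 7 and rank 579, RpS16 with 5 and rank 179, and RpL28 with 5 and rank 194.

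The host with most members had no optimal peak. Arpc2, a subunit of the actin-nucleating Arp2/3 complex, held 17 box H/ACA genes, and its strongest pooled summit stood at rank 5177, with a rank of 2005 in replicate 4 and no summit in replicate 3. Uhg1 held 16 members and stood at pooled rank 24297. Sf3b3, a subunit of the U2 snRNP, held 9 members at 9073, kra held 8 at 4011, although it ranked 3136 and 2841 in replicates 3 and 4, and Hrb98DE and Nop60B held 7 each at 5200 and 5079. CG10576, with 5 members, stood at 6060, and the noncoding lncRNA:CR45184, with 5 that also lie in Sf3b3, at 20124.

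The 7 Uhg genes are known for carrying snoRNAs and encode no protein, and 3 had an optimal peak (42.9%, 15.8 to 75). Uhg4 stood at ranks 180 and 183 in replicates 3 and 4, Uhg5 at 1761 and 2237, and Uhg3 at 3543 and 1903. The other 4 had no optimal peak, with Uhg2 at pooled rank 4212, Uhg8 at 7002, Uhg1 at 24297 and Uhg7 without a pooled summit. The 3 members in Uhg7 also lie in RpL23A, which had an optimal peak at rank 22. Uhg4 and Uhg5 thus ranked within the first 3207 of both replicates, and Uhg3 did so in replicate 4.

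By chemical class, box C/D genes had an optimal peak at 9 of 109 (8.26%, 4.40 to 15), box H/ACA genes at 7 of 114 (6.14%, 3.01 to 12.1) and scaRNA genes at 1 of 16 (6.25%, 1.11 to 28.3). The other 30 snoRNA genes, whose names give no class, had 1 (3.33%, 0.591 to 16.7). These intervals overlap. In the pooled relaxed list the 30 had a summit at 19 (63.3%, 45.5 to 78.1), an interval that holds the 48.6% of all genes. It lay above the intervals of box C/D genes, 31.2% (23.3 to 40.4), and box H/ACA genes, 26.3% (19.1 to 35.1). In replicate 3 the 30 had a summit at 15 (33.2 to 66.8%). That interval overlapped those of box C/D (25.7 to 43.2%) and box H/ACA genes (23.8 to 40.6%). In replicate 4 the count was 17 (39.2 to 72.6%). There the interval overlapped that of box H/ACA genes (27.7 to 45.1%) but not that of box C/D genes (18.4 to 34.6%).

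The genes whose products make and assemble these RNAs were followed in 7 lists, of which 67 of 88 symbols matched the annotation. Several of the symbols without a match are alternative names of genes that did match. In all, 15 of the 67 had an optimal peak (22.4%), beside 15.1% of protein-coding genes. Of the factors that transcribe snRNA genes 2 of 7 had one: Bdp1, a subunit of TFIIIB, at rank 97 with ranks of 109 and 83 in the replicates, and Brf, another subunit, at 410, where the summit was nearest to sds22. The SNAPc subunits Pbp45, Pbp49 and Pbp95 stood at pooled ranks 25385, 3578 and 5823.

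Integrator, which cuts the 3′ end of snRNA transcripts, had an optimal peak at 7 of 14 matched subunits (50%). The strongest were IntS6 at rank 503, IntS9 at 557 and IntS10 at 1641, each with its summit nearest to the start of another gene. The same held for asun at 2827 and defl at 2950, so 5 of the 7 peaks cannot be given to the subunit alone. At IntS11, rank 2076, and omd, rank 1759, the summit was nearest to the subunit itself. IntS12 had a summit in none of the lists.

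The box C/D snoRNP proteins had a peak at 3 of 7. Fib, the methyltransferase fibrillarin and itself the host of snoRNA:229, stood at rank 1112, and rept and pont, helicases that help to assemble snoRNPs, at 2002 and 2158, where the summit at pont was nearest to Sirt6. None of the 4 matched box H/ACA proteins had one, with NHP2 nearest at pooled rank 3471 and Nop60B, the pseudouridine synthase, at 5079. Proteins of the U snRNPs had 3 of 18, Prp31 at 1886, SmD3 at 2099 and Prp3 at 3001, where the summit was nearest to Mi-2. The snRNP assembly and export list had 0 of 13, with icln nearest at pooled rank 3402 and Smn at 3500, and the little elongation complex had 0 of 4, with Ice1 nearest at 3429.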

How the data were processed

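Both samples are biological replicates of ChIP-seq on Mes4-GFP embryos, and they formed 1 group with no contrast between conditions. The antibody was to GFP by the samples' description and to Mes4 by their antibody field. Per the deposited readme files, the authors made a relaxed peak list per replicate, another from the pooled alignments with the shared control, and an optimal IDR list. Which aligner, peak caller and IDR cutoff they used is not given in the sources used here. The deposited signal column is the authors' value per peak, on a scale that is not stated, and was used to rank peaks within a list. The deposited −log10 q-value column stood at 3.89 for the optimal peaks at the snRNA genes and could not rank them. The summit position is the deposited offset within the peak.

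Lists in dm6 were used, and the dm3 lists were not used here. Genes, TSSs and introns came from Ensembl release 115 and sequence from RefSeq Release 6, whose arms end past every peak. A member's TSS was its 5′ end, and a replicate's peak was matched to a pooled peak where summits lay within 200 bp. Motifs were searched as plain text on both strands. Copies were aligned end to end, and identity is 1 minus the edit distance over the longer length. Tools were Python 3.11.15, pandas 2.3.3 and SciPy 1.17.1, and the matching of summits was tested on simulated peaks. With 1 group of 2 replicates no test was made, and shares are set beside those of all genes. The members and lists were chosen with earlier results of these data known. Named genes were all snRNA genes with a summit in any list, independent snoRNA genes with an optimal peak, the 10 nested members and 15 hosts with the strongest peaks, hosts with 5 or more members, and the ends of each pathway list. U3, Me18S-A1806, Me18S-C1968, Psi18S-176, CG43051-a, Pbp49 and Pbp95 were named after their values were seen.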

Additional observations from a re-analysis of the deposited data

How the results depend on the processing

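Counts of members depend on what counts as near, more than on the replicate. With a distance of 250 bp, 12 members had an optimal peak, 6 of them nested, and 63 had a pooled relaxed summit. With 1000 bp these counts were 64, 53 and 184. Counting any overlap of a peak with the 500 bp around the TSS gave 37 members, 27 of them nested. Giving each summit only to its nearest TSS left 9 members, 2 of them nested, and 62 with a pooled summit. Counts of independent members, snRNA genes and nested members with a bound host stayed within 1.5 times under these choices, under the stronger 1603 optimal peaks, and with hosts on either strand. Leaving out a replicate and taking as many of the strongest peaks of the other gave 21 to 27 members, 8 to 11 independent members, 13 to 16 nested members, 6 to 7 snRNA genes, 146 to 159 nested members with a bound host, and 106 to 109 members with a relaxed summit. No paired analysis was possible because there is 1 group. Without read counts or an untagged sample, absence of a peak cannot be told apart from low depth.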
